A study of Mus musculus with 3 samples.

Results

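Genes for secondary (specific) and tertiary (gelatinase) granule proteins and for related products of maturing neutrophils were followed, namely Lcn2, Ltf, Camp, Ngp, Mmp8, Mmp9, Mmp25, Chi3l3, Retnlg and Padi4. They were chosen by symbol, and all 10 had a row among the 23234 genes of each table. RNA came from cells sorted from wild-type C57BL/6J mice of 6 to 15 weeks of age, all of which had received lipopolysaccharide (LPS, a bacterial cell wall component; 10 µg in 10 µL) into the nostrils. The double-positive group (DP) was CD45+Ly6G+SiglecF+ and came from the nose, 2 days after LPS was given. Nasal neutrophils were CD45+Ly6G+SiglecF- cells of the nose taken 1 day after LPS. Blood neutrophils had that gate and day and came from peripheral blood. Each group had 1 library, so differences carry neither a replicate error nor a test. In the comparisons with DP the day and the gate change together with the group, and against blood neutrophils the tissue changes as well. How many mice gave a library, and whether the libraries were made together, is not given in the sources used here.

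Neutrophils make their granules in sequence in the bone marrow. Primary granules, which hold myeloperoxidase and serine proteases, are filled at the promyelocyte stage, specific granules with lactoferrin and lipocalin 2 at the myelocyte stage, and gelatinase granules later still. The transcripts for this cargo are mostly made before the cell leaves the marrow, and the transcription factor C/EBP-epsilon is needed for the specific granule genes. Padi4 and the membrane protease gene Mmp25 are expressed late in this series. In the nose, glands and surface epithelium can also make lactoferrin and lipocalin 2, and macrophages can make the chitinase-like protein of Chi3l3.

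Levels are given as FPKM, fragments scaled to transcript length and to the number of mapped fragments. This scaling does not correct for differences in the make-up of RNA between libraries, and other scalings are given at the end. The FPKM sums of the libraries lay between 620230 and 663027, and 7706 to 11294 genes reached 1 FPKM. From the steps between low values, depth was about 54800000 fragments in DP cells, 12800000 in nasal and 54300000 in blood neutrophils. At those depths the lowest member values, Padi4 and Mmp25 in DP, rested on about 750 and 870 fragments, so counting error is small beside the ratios below; these are approximate numbers. No member was listed at 0 in any library, and all 10 passed the filter of a mean of 1 FPKM over the 3 libraries, as did 10719 genes in all. The sorted cells carried neutrophil transcripts in every library: Csf3r, the receptor for the neutrophil growth factor G-CSF, stood at 581 FPKM in DP cells, 607 in nasal and 1180 in blood neutrophils. S100a9, an abundant calcium-binding protein of neutrophils, stood at 3233, 12277 and 52238 FPKM. S100a8, its partner, was listed at 0 in blood, which in such a table can be a failed estimate. The eosinophil granule genes Epx and Prg3 were at 0 in all 3 libraries and Prg2 was at most 0.19 FPKM. The whole list of 10 eosinophil markers summed to 11.4 FPKM in DP cells, 20.3 in nasal and 7.35 in blood neutrophils. Its highest values were 11.5 FPKM for the ribonuclease gene Ear2 in nasal neutrophils (0.43 in DP, 1.34 in blood), 7.98 for the lipoxygenase gene Alox15 in DP (2.73 in nasal neutrophils, 0 in blood) and 4.15 for the chemokine receptor gene Ccr3 in blood (1.92 in DP, 0.49 in nasal neutrophils).

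The 10 genes were nearly all lowest in DP and fell into distinct profiles over the libraries. In 6 of them (Lcn2, Camp, Ngp, Mmp25, Chi3l3 and Mmp9) the order was nasal neutrophils, blood neutrophils, DP, with Mmp9 near level between the first 2 at 581 and 567 FPKM. In 3 (Mmp8, Retnlg and Padi4) it was blood neutrophils, nasal neutrophils, DP. Ltf alone was ordered nasal neutrophils, DP, blood neutrophils. With 1 library each, no neighbouring levels in these orders can be set against a spread. The summed FPKM of the 10 genes was 1198 in DP cells, 16358 in nasal and 25034 in blood neutrophils, which is 0.188%, 2.64% and 3.78% of each library's sum. Among the 100 most abundant genes of a library, 5 were members in nasal neutrophils, 2 in blood neutrophils and 0 in DP. In a sorted bulk sample, fewer cells that express a gene and less of its RNA per cell cannot be told apart.

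**Figure D1:**
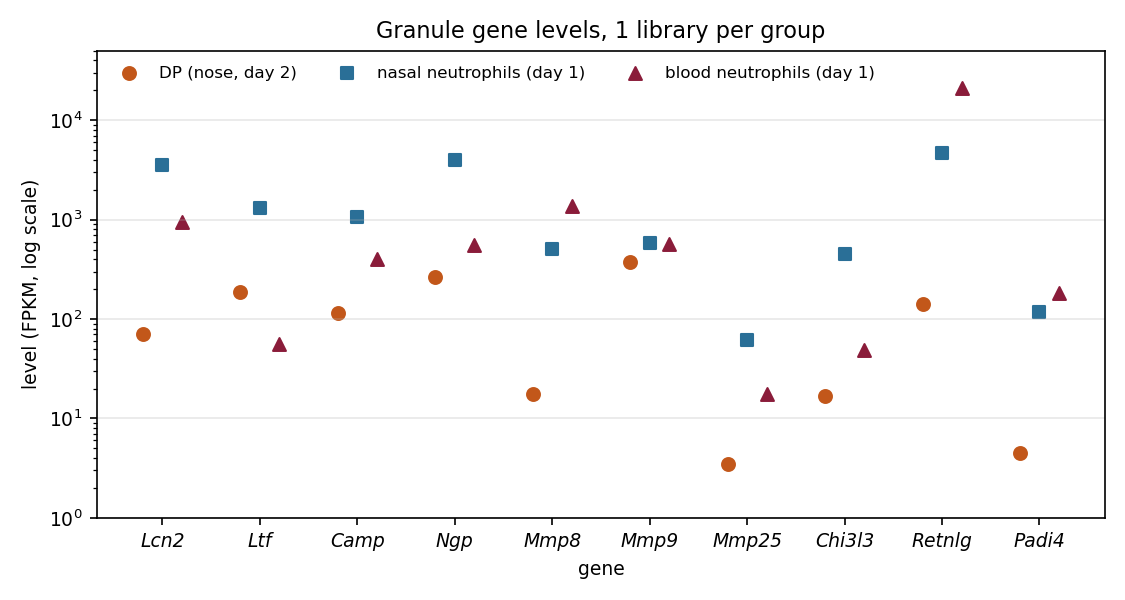
Level of each granule gene (FPKM, log axis) in the 3 libraries, 1 point per library. DP is the lowest point for every gene except Ltf, where blood neutrophils are lowest at 56.6 FPKM, and Mmp9 shows the narrowest range, from 374 to 581 FPKM.

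The promoters of 6 members are shown because these genes stood on opposite sides of that division. Ltf, Ngp and Chi3l3 had the largest excess in nasal over blood neutrophils, and Mmp8, Retnlg and Padi4 were highest in blood. Padi4 was only 1.56-fold higher in blood than in nasal neutrophils, and set against Csf3r it was higher in nasal neutrophils. Each window is the 250 bases before the RefSeq start on GRCm38.p6, written 5′ to 3′ on the gene's strand; 9 of the 10 members had an entry, Chi3l3 under its current symbol Chil3, and Mmp9 had none. The deposited values were made on another build (mm9), and nothing was joined by position. Capitals mark every match, on either strand, to the C/EBP letters TTNCNNAA, the AP-1 letters TGANTCA, the PU.1 letters GAGGAAGT or an NF-kappaB form, GGGA and TCC with any 3 bases between them.
Ltf, chr9:111019042-111019291, plus strand: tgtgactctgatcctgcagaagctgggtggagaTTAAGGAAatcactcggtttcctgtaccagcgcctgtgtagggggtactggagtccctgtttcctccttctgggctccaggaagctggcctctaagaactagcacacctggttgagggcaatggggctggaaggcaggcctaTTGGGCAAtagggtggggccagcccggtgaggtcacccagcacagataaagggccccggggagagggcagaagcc
Ngp, chr9:110419558-110419807, plus strand: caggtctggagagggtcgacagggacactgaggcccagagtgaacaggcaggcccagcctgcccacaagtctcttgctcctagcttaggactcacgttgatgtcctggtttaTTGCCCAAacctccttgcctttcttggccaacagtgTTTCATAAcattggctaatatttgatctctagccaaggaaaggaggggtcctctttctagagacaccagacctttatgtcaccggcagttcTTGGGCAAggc
Chi3l3, chr3:106167565-106167814, minus strand: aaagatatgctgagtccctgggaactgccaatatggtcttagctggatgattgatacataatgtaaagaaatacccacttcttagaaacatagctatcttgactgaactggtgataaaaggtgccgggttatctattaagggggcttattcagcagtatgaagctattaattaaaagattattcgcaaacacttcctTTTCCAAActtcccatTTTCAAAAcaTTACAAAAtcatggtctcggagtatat
Mmp8, chr9:7558179-7558428, plus strand: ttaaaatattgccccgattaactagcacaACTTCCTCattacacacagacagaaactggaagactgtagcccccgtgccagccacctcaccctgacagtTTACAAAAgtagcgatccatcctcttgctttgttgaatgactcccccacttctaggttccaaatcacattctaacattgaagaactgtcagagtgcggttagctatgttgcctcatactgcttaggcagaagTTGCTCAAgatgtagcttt
Retnlg, chr16:48872358-48872607, plus strand: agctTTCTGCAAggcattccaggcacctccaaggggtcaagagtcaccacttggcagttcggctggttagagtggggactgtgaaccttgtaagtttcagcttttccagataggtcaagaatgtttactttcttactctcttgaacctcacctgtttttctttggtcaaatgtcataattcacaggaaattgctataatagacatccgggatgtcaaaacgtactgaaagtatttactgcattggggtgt
Padi4, chr4:140774204-140774453, minus strand: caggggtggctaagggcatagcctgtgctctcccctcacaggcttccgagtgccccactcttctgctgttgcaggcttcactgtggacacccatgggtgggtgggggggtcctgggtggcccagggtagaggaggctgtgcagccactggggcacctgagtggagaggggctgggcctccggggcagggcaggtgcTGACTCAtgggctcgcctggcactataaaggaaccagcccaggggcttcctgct
C/EBP letters occurred in 6 of the 9 member windows (Lcn2, Ltf, Ngp, Mmp8, Chi3l3 and Retnlg) and in 36.8% of all 32851 RefSeq windows of that length. Ngp and Chi3l3 held 3 matches each, Ltf and Mmp8 held 2, and Lcn2 and Retnlg held 1. The match nearest to the start began 11 bases before it in Ngp, 19 in Mmp8 and 27 in Chi3l3. AP-1 letters occurred in Padi4 alone, 54 bases before the start, against 6.75% of all windows, and PU.1 letters in Mmp8 alone, against 2.44%. The NF-kappaB form occurred in 0 of the 9 windows and in 3.86% of all. A match is a description of the letters and not a binding site, and both sides of the division held C/EBP letters.

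Lipocalin 2 and lactoferrin both withhold iron from bacteria, the first by binding siderophores and the second by binding iron itself. Lcn2 stood at 70.2 FPKM in DP cells, 3577 in nasal and 937 in blood neutrophils. It was 51.0-fold lower in DP than in nasal neutrophils by the deposited FPKM (a log2 ratio of -5.65 on the log2(FPKM + 1) scale used throughout), the largest difference of the 10 genes and the place 13 from the lowest among all tested genes. Against blood it was 13.3-fold lower in DP, a log2 ratio of -3.72. Ltf stood at 186 FPKM in DP cells, 1324 in nasal and 56.6 in blood neutrophils. Ltf was thus 23.4-fold higher in nasal than in blood neutrophils (log2 ratio 4.52), 7.12-fold lower in DP than in nasal neutrophils (-2.83) and 3.29-fold higher in DP than in blood (1.70). In blood and nasal neutrophils Lcn2 exceeded Ltf, whereas in DP Ltf exceeded Lcn2.

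Nasal tissue transcripts were found in both libraries from the nose and were nearly absent from blood. The 14 epithelial, gland and olfactory markers summed to 2077 FPKM in DP cells, 1913 in nasal and 1.96 in blood neutrophils, where 7 of them, among them Omp and Epcam, were at 0. Obp1a alone gave 1073 FPKM of the DP sum and 1329 of the nasal neutrophil sum, so these sums mostly follow 1 gene. Of these markers 12 passed the filter. With blood near 0 they passed it through the nasal libraries, so a count of them against blood would be largely fixed beforehand and is not drawn on. The gland and epithelial genes Pigr, Aqp5 and Dmbt1 stood at 15.5, 11.3 and 19.1 FPKM in DP and at 17.0, 18.9 and 15.2 in nasal neutrophils. Lpo, the lactoperoxidase gene of glands, was at 0.27 FPKM or less in each library. The part of nasal tissue RNA in the nasal values of Ltf and Lcn2 was not tested. Between DP and nasal neutrophils 2 of the 12 (Gap43 and Bpifa1) exceeded 4-fold toward DP and 1 (Foxj1) toward nasal neutrophils. Their median log2 ratio was -0.03.

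Camp and Ngp encode proteins with a cathelin domain, the first the precursor of the antimicrobial peptide CRAMP and the second neutrophilic granule protein. Camp stood at 116 FPKM in DP cells, 1055 in nasal and 398 in blood neutrophils. Ngp, in that order, had levels of 267, 3993 and 562 FPKM. Both were highest in nasal neutrophils, but they were spaced differently: from blood to nose Ngp was 7.11-fold higher (log2 ratio 2.83) and Camp 2.65-fold (1.40). DP was 15.0-fold lower than nasal neutrophils for Ngp (-3.90) and 9.11-fold lower for Camp (-3.18). Against blood the DP level was 2.11-fold lower for Ngp (-1.07) and 3.44-fold lower for Camp (-1.77). Ngp was after Retnlg the most abundant member in nasal neutrophils, at rank 18 of all genes, and was at rank 415 in DP.

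The 3 metalloproteinase genes did not share a profile. Mmp8, a collagenase of specific granules, stood at 17.7 FPKM in DP cells, 508 in nasal and 1369 in blood neutrophils. It was 28.6-fold lower in DP than in nasal neutrophils (log2 ratio -4.76) and 77.1-fold lower than in blood (-6.19). Mmp9, the gelatinase that names the gelatinase granule, stood at 374 FPKM in DP cells, 581 in nasal and 567 in blood neutrophils. Its DP level was 1.55-fold below nasal neutrophils (-0.63) and 1.52-fold below blood (-0.60), the smallest difference of any member in both comparisons. Mmp9 was the most abundant of the 10 genes in DP and ranked 282 of all genes there, while Mmp8 ranked 3689. Mmp25, a protease held at the membrane by a lipid anchor, stood at 3.50 FPKM in DP cells, 61.8 in nasal and 17.8 in blood neutrophils, the lowest member in each library. It was 17.6-fold lower in DP than in nasal neutrophils (-3.80) and 5.07-fold lower than in blood (-2.06). In RefSeq the Mmp8 gene overlaps Gm31751 and the Mmp25 gene overlaps Bicdl2 and Gm7773; whether the counting used strand is not given in the sources used here, so reads of these partners cannot be told apart from theirs.

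Chi3l3, Retnlg and Padi4 are not classical granule cargo in every scheme but mark maturing mouse neutrophils. Chi3l3 encodes the chitinase-like lectin Ym1 and stood at 16.7 FPKM in DP cells, 449 in nasal and 48.9 in blood neutrophils. It was 27.0-fold lower in DP than in nasal neutrophils (-4.67), and nasal exceeded blood neutrophils by 9.18-fold (3.17). Chi3l4, its neighbouring close copy, had the same order at 3.11, 50.5 and 4.55 FPKM, and reads divided between these copies make both values uncertain. The 10 macrophage markers summed to 481 FPKM in DP cells, 563 in nasal and 400 in blood neutrophils. The blood sum came mainly from Cd68, Csf1r (85.9 FPKM) and Emr1 (78.8), and 5 of the 10 were at 0 there. Similar sums thus rest on different genes. C1qa, C1qb and C1qc stood at 30.8, 80.9 and 53.3 FPKM in nasal neutrophils, 10.5, 32.3 and 29.0 in DP and all at 0 in blood. Cd68, at 296 FPKM in DP cells, 181 in nasal and 235 in blood neutrophils, was instead highest in DP. So was Ms4a7, at 22.4, 17.9 and 0.03. Of the 8 markers tested, 4 were at least 2-fold lower in DP than in nasal neutrophils, against 11.3% of all tested genes, and 4 were within 2-fold. The part of macrophages in the Chi3l3 values was not tested.

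Retnlg encodes a secreted protein of the resistin family and was the fourth most abundant gene of the blood library. It stood at 143 FPKM in DP cells, 4692 in nasal and 20894 in blood neutrophils. The DP level was 32.8-fold below nasal neutrophils (-5.03) and 146-fold below blood (-7.18), at place 8 from the lowest of all tested genes in the latter. Padi4, the deiminase that converts histone arginine to citrulline when neutrophils release chromatin, stood at 4.53 FPKM in DP cells, 118 in nasal and 183 in blood neutrophils. It was 26.0-fold lower in DP than in nasal neutrophils (-4.42) and 40.5-fold lower than in blood (-5.06), while nasal and blood neutrophils lay within 1.56-fold of each other (-0.64).

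Between DP and nasal neutrophils, which differ in SiglecF and in day, 9 of the 10 members were at least 4-fold lower in DP and 0 reached that size in the other direction. Of all tested genes 3.62% were lower and 8.42% higher by that much. The median log2 ratio was -4.16 over the members and 0.57 over all tested genes. Mmp9 was the member below the threshold. Between nasal and blood neutrophils, the same gate and day in different tissues, 3 members (Ltf, Ngp and Chi3l3) were at least 4-fold higher in the nose, against 13.1% of all tested genes, and 1 (Retnlg) was at least 4-fold lower, against 3.23%. Retnlg was under 4-fold there with ratios taken less that of Csf3r (-1.20) and with a correction for transcript length (-1.47). Less the ratio of Csf3r, 6 members were at least 4-fold higher, against 32.6% of all tested genes. With values as deposited, the median of nasal against blood neutrophils was 1.57 for the members and 0.41 for all tested genes. The members therefore spread from -2.15 for Retnlg to 4.52 for Ltf in that comparison. Between DP and blood neutrophils 5 members (Lcn2, Mmp8, Mmp25, Retnlg and Padi4) were at least 4-fold lower in DP, against 3.57% of all tested genes, and 0 were at least 4-fold higher, against 24.0%. The medians were -1.92 and 0.95. Mmp25 lay close to the threshold, and with ratios centred on the median of all tested genes the number at least 4-fold lower was 8, against 9.06% of all tested genes on that scale. Less the ratio of Csf3r that number was 4, against 1.45%, and the member median was -0.90. At a 2-fold threshold, 9 members were lower and 0 higher in DP than in nasal neutrophils, where 11.3% and 33.6% of all tested genes were. At that threshold 6 were higher and 2 lower in nasal than in blood neutrophils, against 33.5% and 12.8%, and 1 was higher and 8 lower in DP than in blood, against 48.6% and 9.49%. These comparisons share libraries and are not independent of each other.

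**Figure D2:**
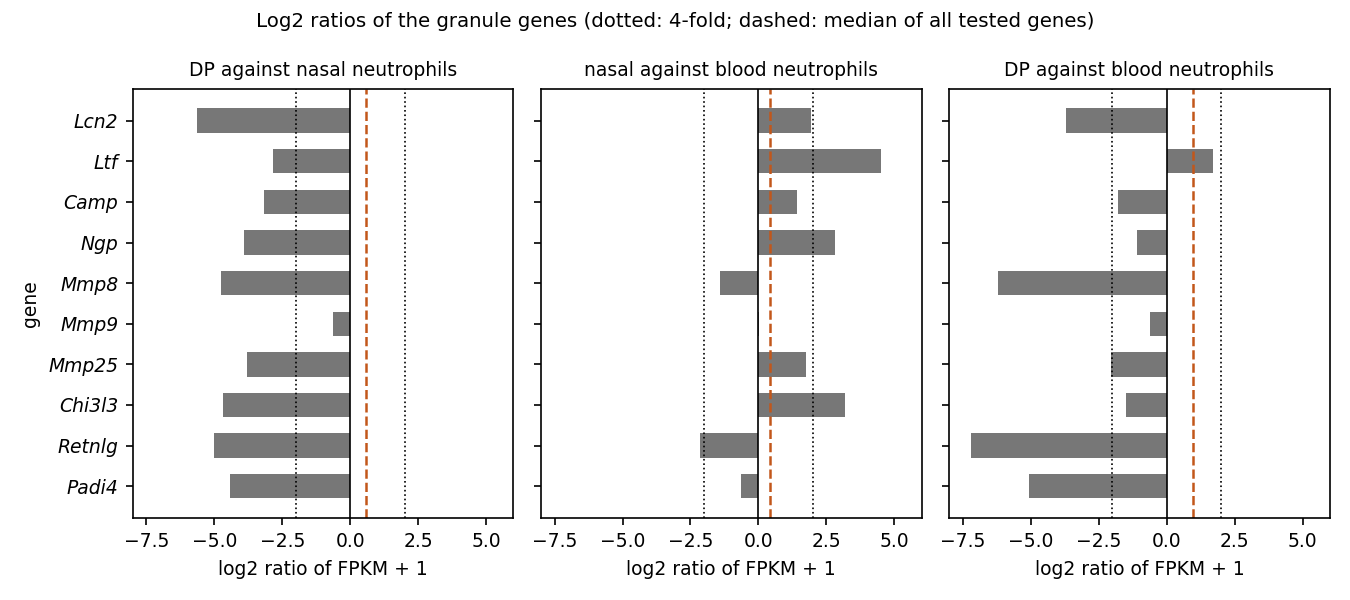
Log2 ratio of FPKM + 1 for each granule gene in the 3 comparisons; bars run from 0, dotted lines stand at 4-fold and the dashed line at the median of all tested genes. All bars point to lower values in DP than in nasal neutrophils, from -0.63 for Mmp9 to -5.65 for Lcn2, whereas the bars of nasal against blood neutrophils point in both directions.

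Quotients between members within 1 library do not depend on how libraries were scaled. Retnlg made up 83.5% of the summed FPKM of the 10 genes in blood neutrophils, 28.7% in nasal neutrophils and 11.9% in DP. Mmp9 made up 2.27%, 3.55% and 31.2% in that order, and Ltf 0.226%, 8.09% and 15.5%. The largest change among the 45 pairs was in Retnlg over Ltf, which was 369 in blood, 3.54 in nasal neutrophils and 0.769 in DP. Mmp9 over Mmp8 was 0.415 in blood, 1.14 in nasal neutrophils and 21.1 in DP. The steadiest pair was Ngp over Chi3l3, at 11.5 in blood, 8.88 in nasal neutrophils and 16.0 in DP. Retnlg over Mmp8 (15.3, 9.24 and 8.05), Mmp8 over Padi4 (7.46, 4.31 and 3.92) and Camp over Mmp25 (22.4, 17.1 and 33.1) likewise stayed within 1.94-fold of themselves.

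**Figure D3:**
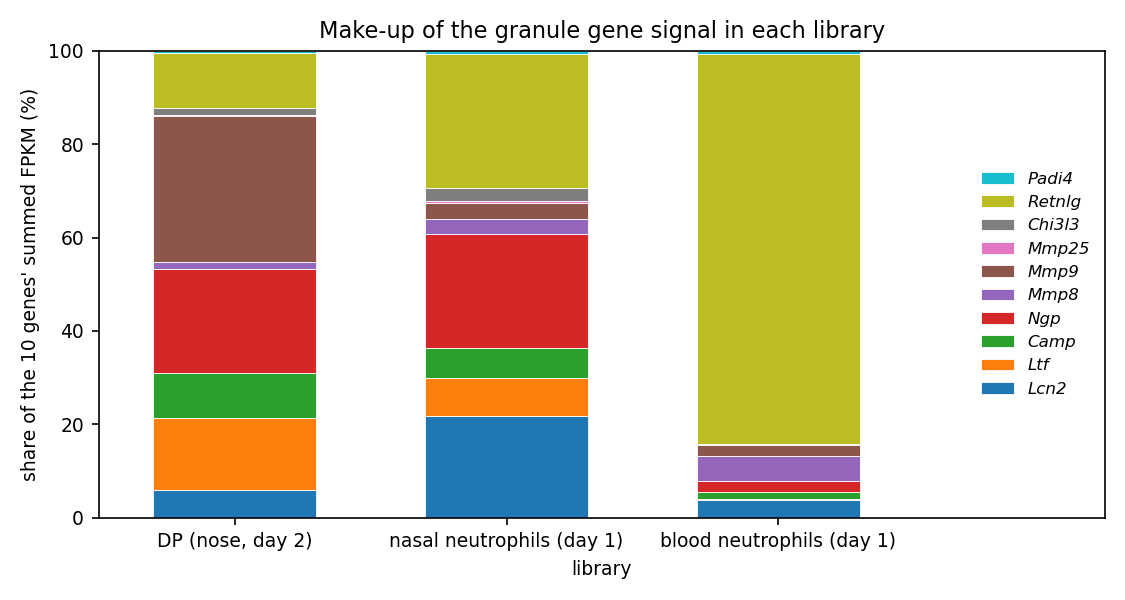
Share of each granule gene in the summed FPKM of the 10 genes (percent, stacked to 100) in each library. Retnlg fills 83.5% of the blood bar, and Mmp9 is the largest part of the DP bar at 31.2%.

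Set against Csf3r of the same library, 8 of the 10 members kept their order of libraries, and Mmp9 and Padi4 did not. Per 100 FPKM of Csf3r, Lcn2 stood at 12.1 FPKM in DP cells, 590 in nasal and 79.3 in blood neutrophils. Retnlg stood at 24.6, 773 and 1770 on that scale, and Ngp at 45.8, 658 and 47.6. Ngp was therefore near level between DP and blood when read against Csf3r. Mmp9 stood at 64.4, 95.7 and 48.1, with DP above blood on this scale, and Padi4 at 0.779, 19.4 and 15.5, with nasal neutrophils above blood.

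Other genes of the granule series were read from lists. Of 24 tested genes for other cargo and membrane proteins of specific, gelatinase and secretory granules, 11 were at least 4-fold lower in DP than in nasal neutrophils and 0 were higher, with a median of -1.95. Of all tested genes 3.62% were lower and 8.42% higher by that much. Cd177, which holds proteinase 3 at the cell surface, stood at 23.0 FPKM in DP cells, 354 in nasal and 110 in blood neutrophils. Fpr1, the formyl peptide receptor, stood at 98.9, 986 and 717 FPKM, and Slpi, an inhibitor of neutrophil elastase, at 301, 2537 and 7863. Thus Cd177 had the order of Lcn2 and Slpi that of Mmp8. Between nasal and blood neutrophils this list had 5 genes at least 4-fold higher and 0 lower, against 13.1% and 3.23% of all tested genes. Its median was 0.24, and the LPS co-receptor gene Cd14 led at 12196 against 204 FPKM. The count of higher genes was partly set by the filter. Arg1, for example, at 22.2 FPKM in nasal neutrophils and 0 in blood, passed it through the nasal libraries. Against blood 11 genes of the list were at least 4-fold lower in DP and 1, Cd14, was higher, where 3.57% and 24.0% of all tested genes were.

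Most primary granule genes were low in all 3 libraries. Of 8 tested, 0 were at least 4-fold higher and 0 lower in DP than in nasal neutrophils, against 8.42% and 3.62% of all tested genes. The median of the 8 was -0.38. At low levels the added 1 FPKM draws such ratios toward 0. Srgn, the most abundant of them, stood at 1870 FPKM in DP cells, 7030 in nasal and 3892 in blood neutrophils, with a log2 ratio of -1.91 between DP and nasal neutrophils. Elane, which encodes neutrophil elastase, stood at 8.59 FPKM in DP cells against 8.91 in nasal neutrophils, and Mpo, which encodes myeloperoxidase, at 3.90 against 7.37; both were listed at 0 in blood. Cd63, a membrane protein of these granules and of lysosomes in most cells, stood at 919, 414 and 141 FPKM. Apart from Cd63, Srgn and Ctsc, no primary granule gene exceeded 10 FPKM in any library. Markers of dividing precursors were low as well, with Mki67 between 0.50 and 1.26 FPKM and Top2a between 0.03 and 0.91, while Stmn1, a tubulin-binding protein that neurons also make, stood at 67.9, 69.9 and 1.57 FPKM.

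The 10 markers of mature neutrophils had a median of -0.82 between DP and nasal neutrophils. Of the 10, 2 were at least 4-fold lower in DP and 0 higher, against 3.62% and 8.42% of all tested genes. Mxd1, which encodes a partner of Max, was 1 of the 2 lower genes. It stood at 125 FPKM in DP cells, 1128 in nasal and 316 in blood neutrophils. Cxcr2, the main chemokine receptor of neutrophils, stood at 254 FPKM in DP cells, 350 in nasal and 1444 in blood neutrophils. Il1r2, the decoy receptor for interleukin 1, stood at 2740, 1996 and 566 FPKM, highest in DP. Of the 10 markers, 5 were at least 2-fold lower in DP than in nasal neutrophils, against 11.3% of all tested genes, and 5 were within 2-fold. The log2 ratio there was -0.06 for Csf3r and -0.46 for Cxcr2, but -3.17 for Mxd1, -1.96 for S100a8 and -1.92 for S100a9.

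**Figure D4:**
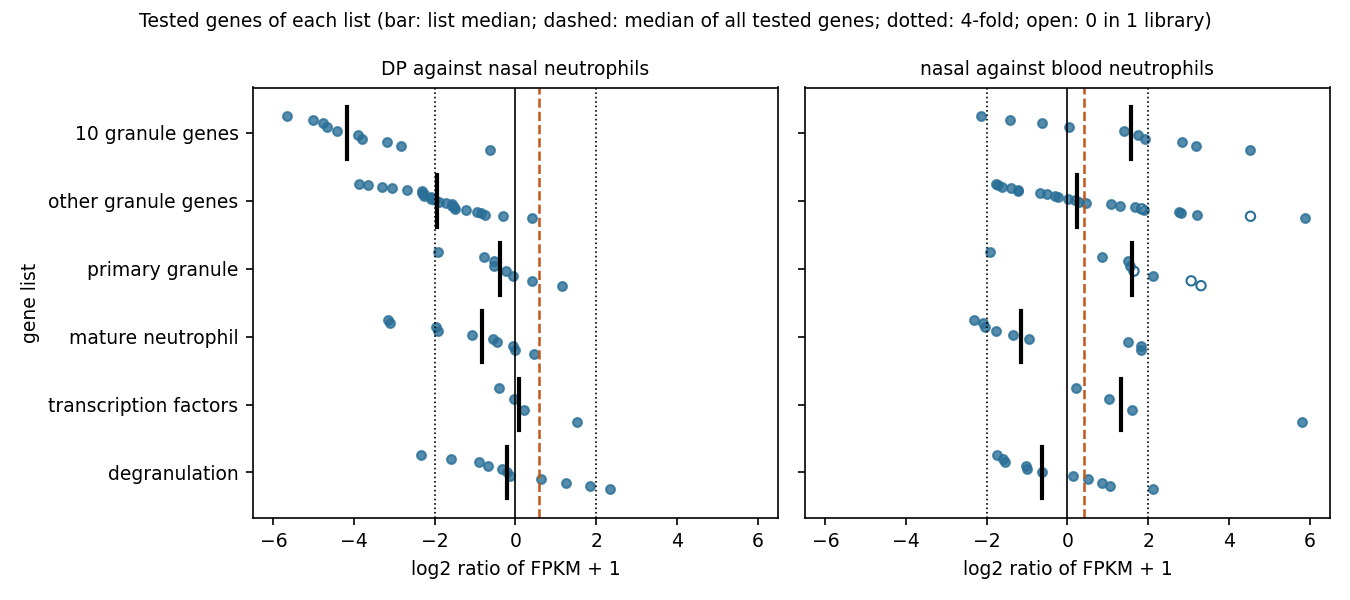
Log2 ratio of FPKM + 1 for the tested genes of 6 lists, 1 point per gene, with a bar at each list's median, a dashed line at the median of all tested genes and dotted lines at 4-fold; open points are genes listed at 0 in 1 of the libraries compared. Between DP and nasal neutrophils the 10 granule genes have a median of -4.16 against -0.38 for primary granule genes. Most of the latter are at low levels, where the added 1 FPKM draws ratios toward 0. S100a8, listed at 0 in blood, lies beyond the right edge of the nasal against blood panel.

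Genes for transcription factors and for granule release were mostly within 4-fold between the nasal libraries, as were most of all tested genes. Of 4 tested transcription factors 0 were at least 4-fold higher or lower between DP and nasal neutrophils, where 8.42% and 3.62% of all tested genes were. Cebpe, the C/EBP member needed for specific granules, stood at 39.1 FPKM in DP cells, 12.9 in nasal and 5.79 in blood neutrophils, highest in DP. Cebpb, the C/EBP member of emergency neutrophil production and inflammation, stood at 156, 208 and 2.71 FPKM. Of 11 genes for granule release, 1 was at least 4-fold higher in DP than in nasal neutrophils and 1 lower. In lists of 4 and 11 genes such counts cannot be told apart from those shares. The higher was Vamp8, a vesicle fusion protein, at 1117 against 218 FPKM, with 658 in blood, and the lower was Unc13d, a priming factor for granule release, at 0.62 against 7.14, with 6.36 in blood. Rab27a, a granule docking GTPase, stood at 16.1 FPKM in DP cells, 26.1 in nasal and 90.8 in blood neutrophils.

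Most relatives of the members by family were at low levels. Among 16 other matrix metalloproteinase genes 4 were tested, and Mmp14, a membrane collagenase of many tissue cells, was at 13.0 FPKM in DP cells, 9.95 in nasal and 0.13 in blood neutrophils. Mmp19 stood at 3.17, 7.11 and 0.11 FPKM. Of the 4 inhibitor genes tested, Timp1 stood at 2.87 FPKM in DP cells against 9.30 in nasal neutrophils, with 0 listed for blood. Of the other deiminases Padi2 alone was tested, at 1.01, 3.13 and 0.83 FPKM. Retn, which encodes resistin, ran opposite to Retnlg between the nasal libraries, at 7.79 FPKM in DP cells, 1.67 in nasal and 22.6 in blood neutrophils. Chi3l1, a secreted relative of Chi3l3, was abundant and stood at 294, 1102 and 1302 FPKM. Slc22a17, a proposed receptor for lipocalin 2, stood at 3.83 and 3.70 FPKM in the DP and nasal neutrophil libraries, with 0 listed for blood, and Fpr2, a receptor for the cathelicidin peptide, stood at 66.8, 222 and 194.

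The genes nearest to each member in profile were searched among 1573 genes with a mean of 50 FPKM or more, by Euclidean distance of log2(FPKM + 1) values centred on each gene's own mean. Such a distance rests on 3 points. Mmp8 and Retnlg were each other's nearest gene at a distance of 0.73, and Padi4 came next after Retnlg for Mmp8, at 0.82. Mmp25 lay nearest to Cd177 at 0.10, and Camp to Mxd1 at 0.36. Ngp lay nearest to Tlr2, a receptor for bacterial lipoproteins, at 0.03, and Ltf to Zc3h12a, an RNase that degrades cytokine transcripts, at 0.06. Chi3l3 lay nearest to the haem oxygenase gene Hmox1 at 0.26, and Lcn2 to Prok2 at 0.64. Mmp9 lay nearest to the actin-binding protein gene Cfl1 at 0.06 and the lactate dehydrogenase gene Ldha at 0.08, both of which most cells express.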

How the data were processed

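The deposited values are FPKM estimates per gene symbol, 1 table per library, made by the authors with TopHat2 2.0.8, Bowtie2 2.1.0 and Cufflinks 2.1.1 on mm9, per the submitters' processing notes. The tables name no unit, which was taken from Cufflinks and the values. Settings were not given in the sources used here. As FPKM is not a count, no count model was used, and 1 library per group allowed no test. Groups came from the labels' sort gate, tissue and day. Values under 1e-06 FPKM (20 to 43 per library) were set to 0. Ratios were taken as log2(FPKM + 1), which understates ratios of low genes; genes with a mean of 1 FPKM or more were tested, and 4-fold (a log2 ratio of 2) was the threshold. The members and lists were chosen with earlier results of these data known. All members are named; genes of other lists were named from among the 3 with the largest ratio per comparison, marker lists without that limit. Mcemp1 and Spi1 were not analysed here. A listed marker is not reported here by name. Depth came from steps of FPKM times transcript length over 2226 genes with 1 GENCODE M21 transcript, and is least clear in DP, where 61 genes lay at the step and 18 at 0.5 of it. Alternatives were other pseudocounts, filters, scalings and thresholds. The ratio and threshold steps were tested on simulated data. Python 3.11.15, numpy 2.4.6 and pandas 2.3.3 were used.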

Additional observations from a re-analysis of the deposited data

How the results depend on the processing

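With 1 library per group there is no leave-one-out value and no error, so these settings show the choices of processing alone. No paired analysis was possible because each group had 1 library. The number of members past the threshold and lower in DP than in nasal neutrophils was 9 under all planned and added settings. The share of all tested genes ran from 1.89% with a pseudocount of 5 to 11.3% at a 2-fold threshold. No member at or past the threshold changed direction in any setting. Planned settings moved other values as follows. At a 2-fold threshold, nasal against blood neutrophils gave 6 members higher and 2 lower (median 1.57, now past the threshold), against 33.5% and 12.8% of all tested genes. DP against blood gave 1 higher and 8 lower (median -1.92, likewise), against 48.6% and 9.49%. For DP against blood the median passed 4-fold with a pseudocount of 0.1 (-2.05), with centring on all tested genes (-2.87, with 8 members lower, against 9.06% of all tested genes) and with upper-quartile scaling (-2.76). The number of members at least 4-fold lower in DP than in blood was 7 with that scaling, against 7.64% of all tested genes. It was 4 with a pseudocount of 5, against 2.44%. Rescaling to a sum of 1000000 gave 4 higher in nasal than in blood neutrophils, against 18.6% of all tested genes, with Lcn2 at 2.03. Settings chosen after seeing the data were these. Less the ratio of Csf3r, nasal against blood gave 6 members higher, against 32.6% of all tested genes, and 0 lower, against 1.14%. The medians were 2.53 for the members and 1.37 for all tested genes. In DP against blood that setting gave 1 member higher, Ltf, against 49.2%, and 4 lower, against 1.45%. The member median there shrank from -1.92 to -0.90, and that of all tested genes was 1.97. Centred on genes that reached 1 FPKM in blood, the median of DP against blood was -2.39. Corrected for transcript length, nasal against blood gave 0 members lower, against 3.08% of all tested genes, as Retnlg, a short transcript, came to -1.47. With that correction DP against blood gave 4 members lower, against 3.68% of all tested genes. Mmp9, near level between nasal and blood neutrophils at 0.03, changed sign under centring (-0.38), upper-quartile scaling (-0.22) and length correction (-0.03); less the ratio of Csf3r, Padi4 changed sign there (0.32), as did Mmp9 in DP against blood (0.42). Mmp25 in DP against blood was under 4-fold with a pseudocount of 5 (-1.42), less Csf3r (-1.04) and with length correction (-1.82).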
